A study of Homo sapiens with 18 samples.

Results

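The genes described here encode the subunits that distinguish the immunoproteasome from the constitutive proteasome. The list has 10 of the 41285 genes counted, and it was set by gene name. The immune-type genes are PSMB8, PSMB9 and PSMB10, which encode the inducible catalytic subunits, and PSME1 and PSME2, which encode the chains of the interferon-inducible cap PA28. The constitutive-type genes are PSMB5, PSMB6 and PSMB7, which encode the catalytic subunits those replace, PSME3, which encodes the nuclear cap protein PA28 gamma, and POMP, a chaperone that helps to complete both kinds of core particle. All 10 passed the filter on low counts.

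RNA was sequenced from the chronic myeloid leukaemia cell line K562, with 9 groups of 2 libraries (18 in all). Parental cells were left untreated or given interferon alpha (IFN) at 1000 U/mL for 24 hours. The VPR-D9 line carries a doxycycline-inducible dCas9-VPR, a transcriptional activator, and was left untreated or put in one of the doxycycline groups, D2000 or D6. KRAB-D9 cells carry a doxycycline-inducible dCas9-KRAB, a transcriptional repressor, and was untreated or received the same IFN treatment, doxycycline at 2 µg/mL, or both, with doxycycline started 24 hours before IFN and continued with it. The protocol gives the same 2 µg/mL for VPR-D9, without a dose for each group. The difference between D2000 and D6, the length of doxycycline treatment without IFN, and whether each engineered line is 1 clone were not given in the sources used here. Both engineered lines were made to change SAMD9, the gene the study targeted. Doxycycline-treated parental cells were not analysed here. Effects of doxycycline itself, of the induced dCas9 protein and of the change in SAMD9 therefore cannot be told apart.

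The 20S core of the proteasome is a barrel of stacked rings whose catalytic beta subunits cut unfolded proteins into peptides. In cells that have met interferon, newly made cores take up PSMB8 in place of PSMB5 (the chymotrypsin-like site), PSMB9 in place of PSMB6 (the caspase-like site) and PSMB10 in place of PSMB7 (the trypsin-like site). The PA28 cap of PSME1 and PSME2 opens the core, and the resulting peptides are carried by the TAP transporter to class I molecules. Lymphoid and dendritic cells hold immunoproteasomes at rest, whereas most other cells make them after exposure to interferon.

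Promoter sequences are shown for PSMB10 and PSME2, which hold a match to the interferon-stimulated response element (ISRE), for PSMB9, which starts next to TAP1 in the class II region of the major histocompatibility complex, and for PSMB5 as a constitutive contrast. Each is the 250 bases before a RefSeq start (GRCh38.p14), 5′ to 3′ on the gene's own strand, with matches to the motifs below in capitals. They lie at chr6:32853942-32854191 on the plus strand (PSMB9), and on the minus strand at chr16:67936851-67937100 (PSMB10), chr14:24146611-24146860 (PSME2) and chr14:23035221-23035470 (PSMB5, its first listed start).
PSMB9: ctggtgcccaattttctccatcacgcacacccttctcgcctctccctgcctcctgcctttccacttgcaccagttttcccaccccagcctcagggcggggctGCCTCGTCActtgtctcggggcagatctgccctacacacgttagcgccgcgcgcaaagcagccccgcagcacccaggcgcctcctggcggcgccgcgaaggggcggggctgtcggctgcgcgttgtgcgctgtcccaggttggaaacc
PSMB10: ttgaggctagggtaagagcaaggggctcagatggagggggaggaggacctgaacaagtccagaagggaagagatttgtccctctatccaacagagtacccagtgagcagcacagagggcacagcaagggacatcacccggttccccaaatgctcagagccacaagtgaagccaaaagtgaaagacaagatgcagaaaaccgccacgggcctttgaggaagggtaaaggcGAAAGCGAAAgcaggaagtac
PSME2: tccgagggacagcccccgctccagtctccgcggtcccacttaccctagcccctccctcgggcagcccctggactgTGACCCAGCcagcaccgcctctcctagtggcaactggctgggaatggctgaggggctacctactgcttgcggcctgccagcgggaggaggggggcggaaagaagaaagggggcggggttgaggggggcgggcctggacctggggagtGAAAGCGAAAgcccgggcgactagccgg
PSMB5: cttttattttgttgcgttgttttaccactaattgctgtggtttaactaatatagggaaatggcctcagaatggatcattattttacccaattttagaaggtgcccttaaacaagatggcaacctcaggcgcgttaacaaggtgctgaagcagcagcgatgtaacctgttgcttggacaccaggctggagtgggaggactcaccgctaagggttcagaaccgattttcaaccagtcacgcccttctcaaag

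The motifs were the ISRE (GAAA, any 2 bases, then GAAA), the gamma-activated site or GAS (TTCNNNGAA) and the antioxidant response element or ARE (TGACNNNGC), searched on both strands with no overlap among the matches printed above. The table held 8 of the 10 genes, and PSMB6 and PSMB7 were not matched. The ISRE was found in PSMB10, from base -21 to -12 counted from the start, and in PSME2, from -28 to -19, against 3.02% of the 35116 promoters searched. GAS matches were found in PSME3 and in the second listed starts of PSMB8 and PSMB5 (6.57% of promoters), and ARE matches in PSMB9, PSME1 and PSME2 (10.9%). When the search was widened to the 50 bases after the start, a choice made after seeing the data, an ISRE was found in 4 of the 5 immune-type genes (PSMB8, PSMB10, PSME1 and PSME2) and in none of the 3 constitutive-type genes matched, against 3.57% of promoters. These matches describe letters in a window and say nothing of binding.

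Total counts per library ran from 32.7M to 63M with a median of 52.9M, and the 10 genes took 0.08803 to 0.1234%. SAMD9, the gene the study set out to raise or lower, stood at 9.31 and 9.05 CPM in untreated parental cells, at 59.9 and 61.4 CPM in untreated VPR-D9, at 0.750 and 0.364 CPM in untreated KRAB-D9, at 936 to 974 CPM in D2000 and D6, and at 0 and 0.117 CPM in KRAB-D9 with doxycycline alone. IFN itself raised SAMD9, by 4.13 in parental cells, 6.55 in KRAB-D9 and 3.70 in KRAB-D9 with doxycycline on the log2 scale (all called by edgeR). The IFN effect on SAMD9 was called larger in KRAB-D9 than in parental cells (2.42). Doxycycline in the presence of IFN lowered SAMD9 by 6.08 (called). The part of SAMD9 in the results below was not tested. The K562 markers (globins, GATA1, KLF1 and TFRC, 7 of 7 measured) summed to 1810 to 1830 CPM in untreated parental libraries, 1110 in untreated VPR-D9, 440 in D2000 and 2610 to 3300 over the KRAB-D9 groups. Lymphoid markers (7 of 8 measured) summed to 59.2 to 115 CPM, mostly PTPRC, and myeloid or dendritic markers (9 measured) to 13.2 to 56.9 CPM. Mesenchymal or epithelial markers (5 measured) summed to 572 to 827 CPM, mostly KRT8 and KRT18. The 2 libraries of KRAB-D9 with IFN differed more than those of any other group (chi-square per gene 14.1 against 4.33 to 6.03). Separate cultures for the libraries of a group are not named in the labels, and p-values measure only the spread between these samples, which may be technical.

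Levels are given as CPM, counts relative to the library total after TMM scaling, and only for comparisons between genes were they divided by the gene length in the deposited table. Per kilobase, untreated parental cells had 132 ± 1.4 CPM of PSMB7, 110 ± 1.6 of POMP, 101 ± 4.3 of PSMB5, 69.0 ± 4.0 of PSMB6 and 68.3 ± 0.82 of PSME3 (SD, n = 2 throughout). PSMB6 and PSME3 did not differ beyond their spread. PSME1 followed at 26.6 ± 1.1 and PSME2 at 20.5 ± 1.2 CPM per kilobase, and the inducible catalytic subunits came last, with PSMB10 at 3.48 ± 0.11, PSMB9 at 0.312 ± 0.11 and PSMB8 at 0.157 ± 0.090. The last 2 values rest on 44 and 64 counts of PSMB9 and on 18 and 38 counts of PSMB8 in the 2 libraries. In bulk RNA, fewer cells with a transcript and less transcript per cell cannot be told apart.

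**Figure D1:**
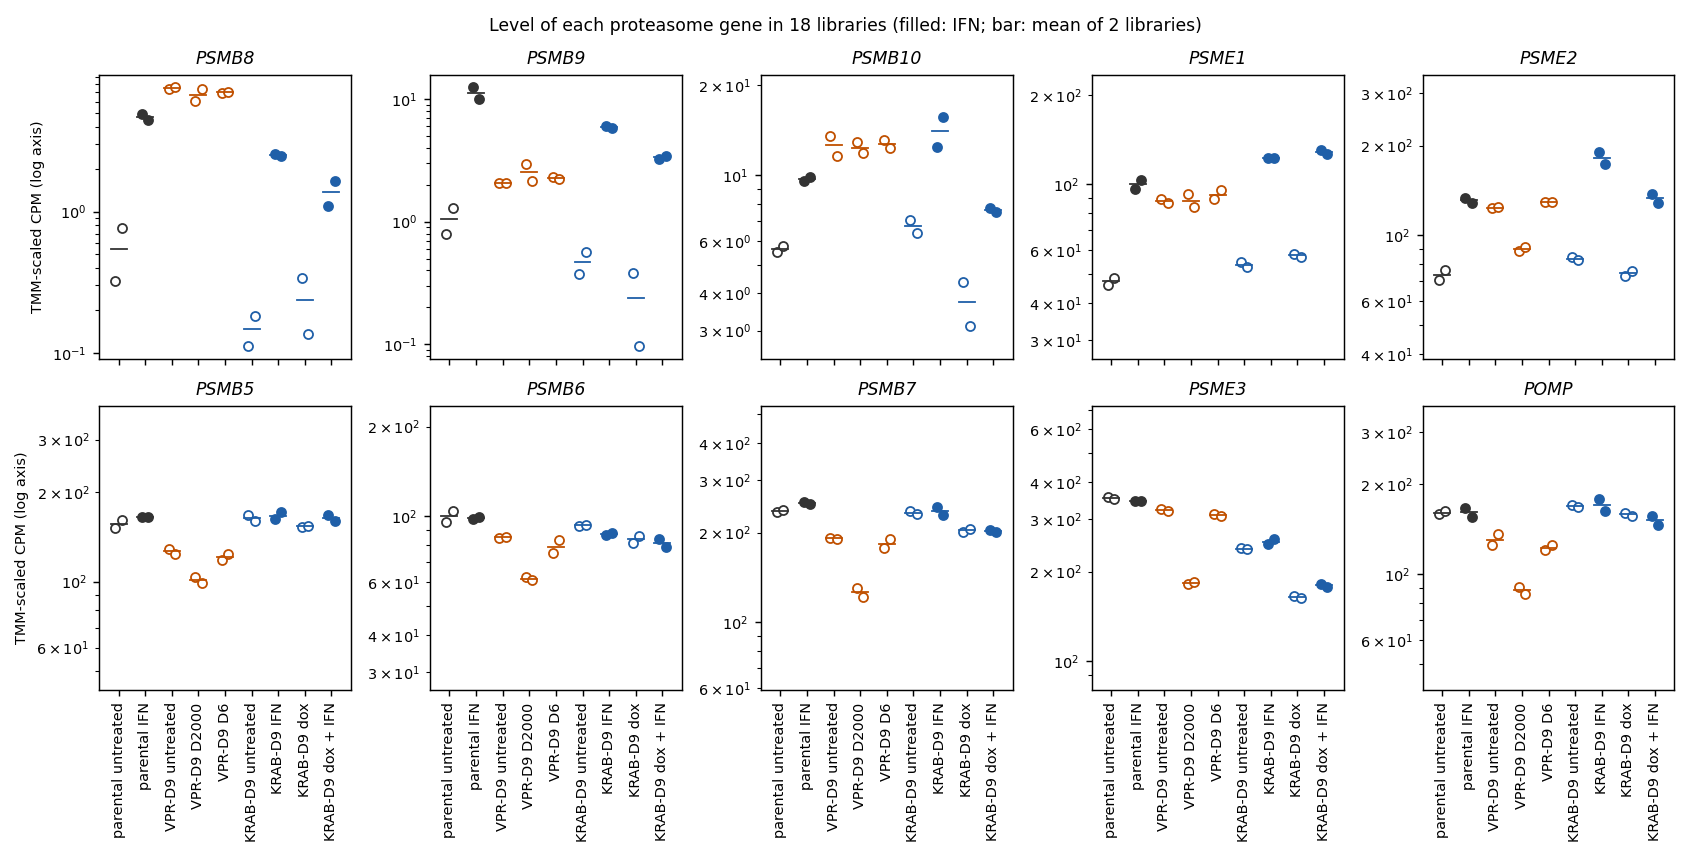
Level of the 10 genes in each of the 18 libraries, as TMM-scaled CPM on a log axis, 1 panel per gene; points are libraries (filled with IFN), bars are the mean of 2, and colours mark the line. PSMB8 ranged from 0.112 to 7.58 CPM and PSMB9 from 0.0975 to 12.4 CPM, whereas PSMB5 ranged only from 99.0 to 171 CPM.

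Over all groups, PSMB8 and PSMB9 had the widest ranges of the 10. The highest group mean of PSMB8, in untreated VPR-D9, was 50.9 times its lowest, in untreated KRAB-D9. For PSMB9 the ratio was 46.9, from KRAB-D9 with doxycycline to parental cells with IFN. The other 8 genes spanned 1.62 (PSMB6) to 3.77 times (PSMB10). PSMB5, PSMB6, PSMB7 and POMP all had their lowest group mean in D2000, and PSME3 in KRAB-D9 with doxycycline.

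IFN in parental cells raised all 5 immune-type genes, and none of the 5 constitutive-type genes was called. Genes were called at an edgeR quasi-likelihood, Benjamini-Hochberg adjusted p under 0.05 over 22143 genes. Of all genes tested, 3.03% were called higher and 1.31% lower in this comparison. No constitutive-type gene was called by DESeq2 either, and 1, PSMB7, had an unadjusted edgeR p under 0.05. Of the 7 K562 markers, 4 were called higher with IFN in parental cells (summed level 2110 to 2180 against 1810 to 1830 CPM). In KRAB-D9, IFN raised 2 of the 7 without doxycycline and 1 with it, and lowered none. The part of these marker shifts in the IFN results was not tested.

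PSMB9, the caspase-site replacement, was at 0.792 and 1.29 CPM in the untreated parental libraries and at 12.4 and 9.94 CPM with IFN. The IFN libraries were both several times above the untreated ones. The rise was 10.8-fold (log2 fold change 3.43 ± 0.27 SE, edgeR Benjamini-Hochberg adjusted p = 5.62e-13). PSMB8, the chymotrypsin-site replacement, was at 0.324 and 0.768 CPM untreated and at 4.92 and 4.46 CPM with IFN. Those groups did not overlap either. PSMB8 rose 8.69-fold (3.12 ± 0.28, edgeR Benjamini-Hochberg adjusted p = 4.5e-11).

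The trypsin-site replacement PSMB10 changed less. Its untreated libraries were at 5.53 and 5.78 CPM and its IFN libraries at 9.56 and 9.85 CPM, close pairs with a gap between them (log2 fold change 0.78 ± 0.14, edgeR Benjamini-Hochberg adjusted p = 0.000194). The cap gene PSME1 went from 45.9 and 48.6 to 96.8 and 103 CPM, a 2.12-fold rise (1.08 ± 0.05, edgeR Benjamini-Hochberg adjusted p = 9.04e-19). Its partner PSME2 went from 70.5 and 76.5 to 133 and 129 CPM (0.83 ± 0.05, edgeR Benjamini-Hochberg adjusted p = 2.3e-16). Both cap genes had the smallest relative errors of the immune-type genes, which were counted far more often than PSMB8, PSMB9 and PSMB10.

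The constitutive-type genes stayed within a narrow band. PSMB5 was at 151 and 161 CPM untreated and at 165 in both IFN libraries (log2 fold change 0.08 ± 0.05). The values were -0.02 ± 0.05 for PSMB6, 0.09 ± 0.04 for PSMB7, -0.03 ± 0.04 for PSME3 and 0.00 ± 0.05 for POMP. Untreated and IFN libraries overlapped for PSMB6 and POMP. The median of the 5 was 0.00, that of the immune-type genes 1.08, and that of all genes tested 0.00.

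KRAB-D9 cells without doxycycline responded to IFN in the same 5 genes. All 5 immune-type genes were called higher and no constitutive-type gene was called, where 3.98% of all genes tested were higher and 2.42% lower (DESeq2 also called none of the latter, and 1, PSME3, had an unadjusted edgeR p under 0.05). PSMB8 was at 0.112 and 0.182 CPM untreated, from 6 and 8 counts, and at 2.58 and 2.46 CPM with IFN (log2 fold change 4.10 ± 0.38, edgeR Benjamini-Hochberg adjusted p = 7.81e-11). PSMB9 was at 0.375 and 0.568 CPM untreated and at 6.06 and 5.83 CPM with IFN (3.67 ± 0.30, edgeR Benjamini-Hochberg adjusted p = 3.42e-12). Untreated and IFN libraries did not overlap for either gene. PSMB10 rose by 1.07 ± 0.14, PSME1 by 1.19 ± 0.05 and PSME2 by 1.12 ± 0.05 on the log2 scale. The IFN libraries of PSMB10 stood apart from each other, at 12.4 and 15.7 CPM, in the group with the largest spread, yet the calls of all 5 immune-type genes held when any 1 of the 4 libraries was left out.

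With doxycycline already present, IFN again raised the 5 immune-type genes, and PSME3 with them, where 3.12% of all genes tested were called higher and 1.77% lower. PSMB8 was at 0.339 and 0.137 CPM with doxycycline alone and at 1.10 and 1.66 CPM with both agents (2.53 ± 0.36, edgeR Benjamini-Hochberg adjusted p = 2.78e-06). PSMB9 was at 0.379 and 0.0975 CPM with doxycycline alone, from 19 and 5 counts, and at 3.27 and 3.43 CPM with both (3.81 ± 0.34, edgeR Benjamini-Hochberg adjusted p = 3.77e-11). In both genes the 2 doxycycline libraries differed from each other severalfold, and both lay below the libraries with IFN. PSMB10 rose by 1.03 ± 0.15, PSME1 by 1.15 ± 0.05 and PSME2 by 0.84 ± 0.05 on the log2 scale. PSME3 rose by only 0.13 ± 0.04 (edgeR Benjamini-Hochberg adjusted p = 0.0342), and that call was lost without the filter on low counts (0.143) and when any 1 of the 4 libraries was left out (0.105 to 0.291).

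The sizes of these IFN effects were compared directly. For KRAB-D9 minus parental, 0 of the 10 genes were called by edgeR, where 0.303% of all genes tested were called in either direction; 2 had an unadjusted p under 0.05, and DESeq2 called 1. That gene was PSME2, with a difference of 0.28 ± 0.07 in edgeR (Benjamini-Hochberg adjusted p = 0.0682) and an adjusted p of 0.0262 in DESeq2. The edgeR call was gained without untreated parental replicate 1 (0.0394) or KRAB-D9 IFN replicate 2 (0.000604). Over all genes tested, 67 calls became 45 without the former library and 992 without the latter. The difference for PSMB8 was 0.98 ± 0.54 and for PSMB9 0.24 ± 0.41. TAP1, the neighbour of PSMB9, had a difference of 1.96 ± 0.23 (edgeR Benjamini-Hochberg adjusted p = 1.33e-06).

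For IFN with doxycycline minus IFN without it in KRAB-D9, 0 of the 10 genes were called by edgeR or DESeq2, where edgeR called 0.158% of all genes tested; 2 members, PSMB8 and PSME2, had an unadjusted edgeR p under 0.05. PSMB8 had a difference of -1.57 ± 0.61 and PSME2 of -0.28 ± 0.07 (edgeR Benjamini-Hochberg adjusted p = 0.416 and 0.118). The latter was called without KRAB-D9 IFN replicate 2 (-0.34, edgeR adjusted p = 0.000679), a fit in which the calls over all genes rose from 35 to 769. A value that missed the threshold does not show that the responses were alike.

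**Figure D2:**
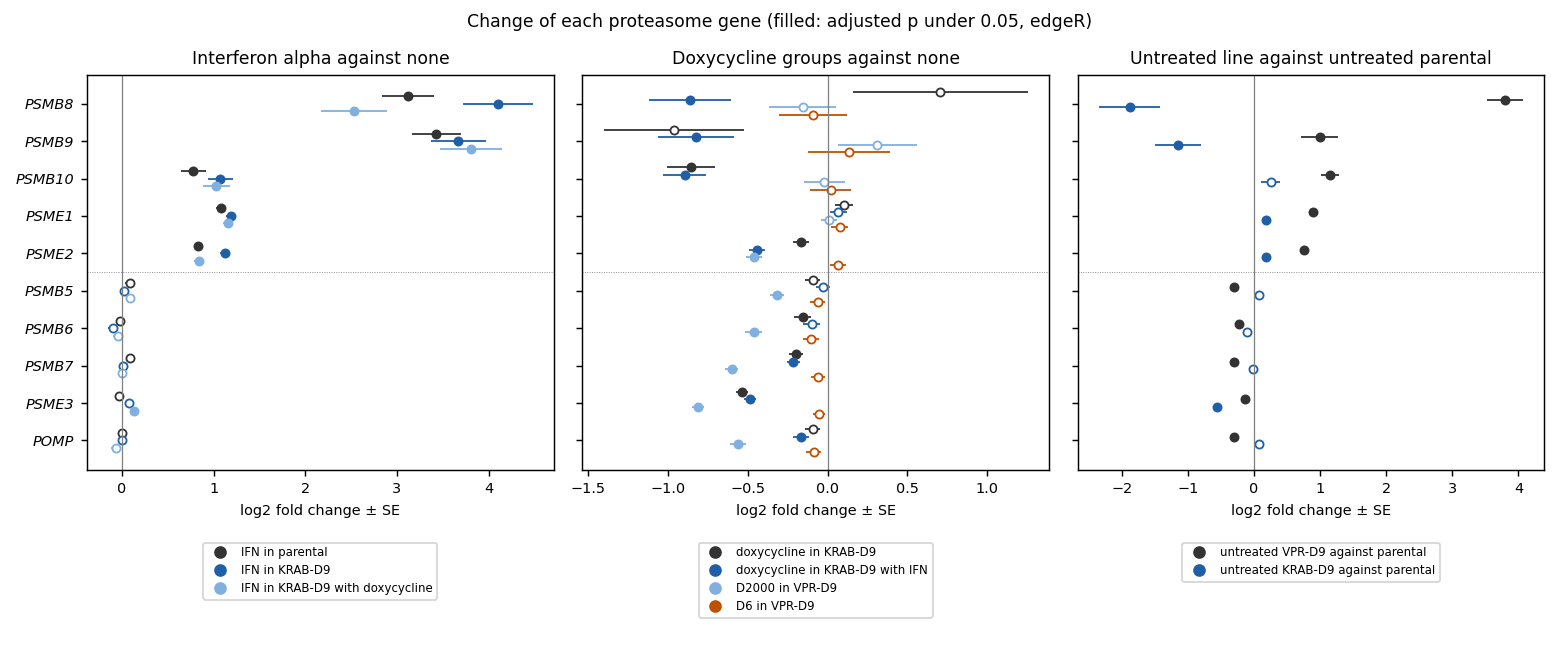
Log2 fold change of each of the 10 genes (bars: SE from the edgeR test) for IFN (left), doxycycline groups (middle) and the untreated engineered lines against parental cells (right); filled points have an adjusted p under 0.05, and the dotted line divides immune-type (above) from constitutive-type genes. With IFN the immune-type genes lie between 0.78 and 4.10 and the constitutive-type genes between -0.10 and 0.13.

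Doxycycline alone in KRAB-D9 cells lowered 5 of the 10 genes, 2 immune-type and 3 constitutive-type, and raised none, where 12.7% of all genes tested were called lower and 12% higher (2654 of 5469 calls higher, against 3162 of 5530 with library totals). DESeq2 also called none higher, and no member with a positive fold change had an unadjusted edgeR p under 0.05. PSME3 was at 239 CPM in both untreated libraries and at 166 and 163 CPM with doxycycline. The gap was far wider than the spread within either pair (log2 fold change -0.54 ± 0.04, edgeR Benjamini-Hochberg adjusted p = 2.57e-14). PSMB10 was at 7.08 and 6.39 CPM untreated and at 4.37 and 3.10 CPM with doxycycline (-0.85 ± 0.15, edgeR Benjamini-Hochberg adjusted p = 2.48e-05). Its doxycycline libraries differed from each other, yet both were below the untreated ones. Marker lists moved in the same comparison: all 5 mesenchymal or epithelial markers were called lower (summed level 572 to 603 against 814 to 827 CPM) and 4 of 7 K562 markers higher (2830 to 2880 against 2610 to 2620 CPM). The summed lymphoid markers were at 63.9 to 65.6 against 95 to 97.7 CPM and the myeloid or dendritic ones at 14.6 to 15.7 against 27.4 to 29 CPM. With IFN present, all 5 mesenchymal or epithelial markers were again called lower and 3 of 7 K562 markers higher. The part of these shifts in the results was not tested.

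The other calls were small. PSMB7 fell by 0.20 ± 0.04, PSME2 fell by 0.17 ± 0.05 and PSMB6 fell by 0.16 ± 0.05 on the log2 scale (edgeR Benjamini-Hochberg adjusted p = 0.000422, 0.0125 and 0.024). The calls of PSME2 and PSMB6 were lost when counts were scaled by library totals (0.0572 and 0.0875). They were also lost without KRAB-D9 untreated replicate 1 (0.085 and 0.0811) or doxycycline replicate 1 (0.134 and 0.246), and that of PSMB6 without untreated replicate 2 (0.0967). PSMB8 (0.71 ± 0.55) and PSMB9 (-0.97 ± 0.44) rest on 5 to 25 counts a library, overlapped between the groups and were not called. With library totals PSME1 was called higher (0.14, edgeR adjusted p = 0.0478), and with only the compared groups in the fit PSMB5 and POMP were called lower (both -0.11, edgeR adjusted p = 0.0285 and 0.0228). Without doxycycline replicate 1 the value for PSMB9 was -2.22 (edgeR adjusted p = 0.00757), and that for PSMB8 was -0.08.

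In the presence of IFN, the same comparison lowered 7 of the 10 genes and raised none, where 11.9% of all genes tested were called lower and 10.4% higher (2302 of 4929 calls higher, against 3109 of 5064 with library totals). DESeq2 called the same numbers, and no member with a positive fold change had an unadjusted edgeR p under 0.05. PSMB8 was at 2.58 and 2.46 CPM with IFN alone and at 1.10 and 1.66 CPM with doxycycline and IFN (log2 fold change -0.87 ± 0.26, edgeR Benjamini-Hochberg adjusted p = 0.0116). PSMB9 went from 6.06 and 5.83 to 3.27 and 3.43 CPM (-0.83 ± 0.24, edgeR Benjamini-Hochberg adjusted p = 0.00871). Libraries did not overlap in either gene, but without the first library given both agents the adjusted p was 0.199 for PSMB8 and 0.0607 for PSMB9.

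PSMB10 went from 12.4 and 15.7 CPM with IFN alone to 7.73 and 7.49 CPM with both agents (log2 fold change -0.90 ± 0.13, edgeR Benjamini-Hochberg adjusted p = 1.96e-06). PSME2 went from 190 and 173 to 138 and 129 CPM (-0.44 ± 0.05, edgeR Benjamini-Hochberg adjusted p = 3.28e-09). PSME1, the other chain of the same cap, was at 122 and 123 CPM with IFN alone and at 131 and 126 CPM with both (0.07 ± 0.05, not called). The 2 chains of the PA28 cap thus had values of unlike sign in this comparison, and the difference between them was not tested.

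Among the constitutive-type genes PSME3 fell by 0.49 ± 0.04, PSMB7 fell by 0.22 ± 0.04 and POMP fell by 0.17 ± 0.05 on the log2 scale (edgeR Benjamini-Hochberg adjusted p = 4.52e-13, 0.000165 and 0.0103). PSMB5 (-0.03 ± 0.05) and PSMB6 (-0.10 ± 0.05) were not called. The call of POMP was lost with library totals (0.0844), with only the compared groups in the fit (0.0914), and without KRAB-D9 IFN replicate 1 (0.176) or replicate 2 of the group given both agents (0.212).

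In the VPR-D9 line, D2000 lowered all 5 constitutive-type genes and PSME2, and raised none of the 10, where 24.2% of all genes tested were called lower and 21.9% higher. DESeq2 also called none higher, and no member with a positive fold change had an unadjusted edgeR p under 0.05. PSME3 was at 325 and 320 CPM untreated and at 181 and 185 CPM in D2000, a 1.76-fold difference (log2 fold change -0.82 ± 0.04, edgeR Benjamini-Hochberg adjusted p = 5.37e-21). PSMB7 went from 192 and 191 to 131 and 121 CPM (-0.60 ± 0.04, edgeR Benjamini-Hochberg adjusted p = 3.77e-15). POMP went from 125 and 136 to 90.4 and 86.0 CPM (-0.57 ± 0.05, edgeR Benjamini-Hochberg adjusted p = 1.34e-12). No D2000 library of these 3 genes reached the lowest untreated one.

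PSMB6 fell by 0.46 ± 0.05 and PSMB5 fell by 0.32 ± 0.05 on the log2 scale (edgeR Benjamini-Hochberg adjusted p = 7.96e-10 and 1.93e-07). PSME2 was at 124 CPM in both untreated libraries and at 88.9 and 91.0 CPM in D2000 (-0.46 ± 0.05, edgeR Benjamini-Hochberg adjusted p = 1.8e-10). PSME1 was at 89.0 and 86.2 CPM untreated and at 92.5 and 83.7 CPM in D2000 (0.01 ± 0.05). The untreated and D2000 libraries overlapped for PSME1 and did not for PSME2. PSMB8 (-0.16 ± 0.21), PSMB9 (0.31 ± 0.25) and PSMB10 (-0.02 ± 0.13) were not called.

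The scaling matters in this comparison. The median log2 fold change of all genes tested was 0.06 with TMM and 0.29 with library totals, and the share of calls that were higher went from 4853 of 10201 to 7195 of 10481. With library totals, PSME3 (-0.58), PSMB7 (-0.37), POMP (-0.34), PSMB6 (-0.23) and PSME2 (-0.23) were still called lower, PSMB5 (-0.09) was not called, and PSME1 (0.24) was called higher. PSMB8 and PSMB10 changed sign, to 0.08 and 0.21, without a call. The summed K562 markers were lower in D2000 (440 CPM) than in untreated VPR-D9 (1110 CPM), and their part in these results was not tested.

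D6, the other doxycycline group of the line, gave 0 calls among the 10 genes by edgeR and by DESeq2, and 0 had an unadjusted p under 0.05, where edgeR called 6.6% of all genes tested (707 of 1461 calls higher, against 878 of 1272 with library totals). Values ran from -0.10 (PSMB6) to 0.13 (PSMB9). D6 against D2000 tested the difference between the doxycycline groups directly, and 6 of the 10 genes were higher in D6 and none lower, where 21.7% of all genes tested were higher and 18.8% lower. DESeq2 also called none lower, and no member with a negative fold change had an unadjusted edgeR p under 0.05. PSME3 was higher by 0.76 ± 0.04, PSMB7 by 0.54 ± 0.04, PSME2 by 0.52 ± 0.05, POMP by 0.48 ± 0.05, PSMB6 by 0.36 ± 0.05 and PSMB5 by 0.25 ± 0.05 on the log2 scale. With library totals the call of PSMB5 was lost (0.06) and PSME1 was called lower (-0.13 against 0.07 with TMM), while the median of all genes moved from -0.05 to -0.25 and the higher calls from 4797 of 8949 to 2945 of 9426. SAMD9 stood at 974 and 948 CPM in D2000 and at 936 and 960 CPM in D6.

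The untreated engineered lines already differed from parental cells, SAMD9 included, which was called higher in VPR-D9 (log2 fold change 2.72) and lower in KRAB-D9 (-3.99). In untreated VPR-D9, all 5 immune-type genes were higher and all 5 constitutive-type genes lower, where 18.5% of all genes tested were called higher and 18.2% lower (4103 of 8144 calls higher, against 4968 of 8250 with library totals). PSMB8 was at 7.41 and 7.58 CPM in VPR-D9 against 0.324 and 0.768 CPM in parental cells, 13.9-fold higher (log2 fold change 3.80 ± 0.28, edgeR Benjamini-Hochberg adjusted p = 1.61e-14). Both libraries were also above the 4.92 and 4.46 CPM of parental cells given IFN. Its neighbour PSMB9, at 2.07 and 2.05 CPM in VPR-D9 against 0.792 and 1.29 CPM in parental cells, was 1.99-fold higher (0.99 ± 0.28, edgeR Benjamini-Hochberg adjusted p = 0.00362). Without untreated parental replicate 1 the value for PSMB9 was 0.67 and the call was lost (0.132).

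PSMB10 was higher in untreated VPR-D9 by 1.15 ± 0.14, PSME1 by 0.89 ± 0.05 and PSME2 by 0.75 ± 0.05 on the log2 scale. PSMB5, PSMB7 and POMP were each lower, at -0.30, PSMB6 at -0.23 ± 0.05 and PSME3 at -0.13 ± 0.04. The call of PSME3 was lost with library totals (edgeR Benjamini-Hochberg adjusted p = 0.215) and without untreated parental replicate 1 (0.0607) or VPR-D9 replicate 2 (0.0731). TAP1 was higher by 0.42 ± 0.14. The same untreated parental libraries serve here and in the IFN comparison, so the 2 comparisons are not independent. Other values that differ between these lines, such as the K562 marker sum (1110 against 1810 to 1830 CPM), were not tested as a source of the differences.

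In untreated KRAB-D9, 3 of the 10 genes were lower than in parental cells and 2 higher, where 14.3% of all genes tested were lower and 14.2% higher. PSME3 was at 239 CPM in both libraries against 355 and 349 CPM in parental cells (log2 fold change -0.56 ± 0.04, edgeR Benjamini-Hochberg adjusted p = 2.38e-15), and this call held without each of the 4 libraries in turn. PSMB8 was at 0.112 and 0.182 CPM against 0.324 and 0.768 CPM (-1.88 ± 0.47, edgeR Benjamini-Hochberg adjusted p = 0.00168), and PSMB9 at 0.375 and 0.568 CPM against 0.792 and 1.29 CPM (-1.15 ± 0.34, edgeR Benjamini-Hochberg adjusted p = 0.00884). No KRAB-D9 library of either gene reached the lower parental one.

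Those low-count calls were less stable than that of PSME3. Without untreated parental replicate 2 the adjusted p was 0.156 for PSMB8 and 0.205 for PSMB9, and without KRAB-D9 replicate 1 it was 0.0502 and 0.152 (edgeR Benjamini-Hochberg). PSME1 and PSME2 were each higher by 0.19 on the log2 scale. Both lost their calls without untreated parental replicate 1 (0.155 and 0.175) or KRAB-D9 replicate 1 (0.122 and 0.0523). TAP1 stood at 0.937 and 0.682 CPM in untreated KRAB-D9 against 4.70 and 4.28 CPM in parental cells (-2.45 ± 0.20, edgeR Benjamini-Hochberg adjusted p = 5.41e-13). All 7 K562 markers were called higher in untreated KRAB-D9 (summed level 2610 to 2620 against 1810 to 1830 CPM). Of the 5 mesenchymal or epithelial markers, 4 were called higher and 1 lower. These marker shifts were not tested as a source of the differences.

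The balance within each exchange was followed as a count ratio, which needs no scaling between libraries and is given with no test. PSMB8 made up 0.154 ± 0.083% of the per-length sum of PSMB8 and PSMB5 in untreated parental cells and 1.25 ± 0.083% with IFN. The share was 2.57 ± 0.11% in untreated VPR-D9, 0.0402 ± 0.015% in untreated KRAB-D9 and 0.669 ± 0.048% in KRAB-D9 with IFN. The PSMB5 transcript therefore exceeded the PSMB8 transcript in every group. PSMB9 made up 0.447 ± 0.13% of its pair with PSMB6 in untreated parental cells, 4.68 ± 0.74% with IFN and 1.04 ± 0.014% in untreated VPR-D9.

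PSMB10 held 2.57 ± 0.052% of its pair with PSMB7 in untreated parental cells and 4.07 ± 0.13% with IFN. Its highest share was 9.73 ± 0.088% in D2000, where PSMB10 stood at 12.9 and 11.8 CPM against 13.5 and 11.6 CPM in untreated VPR-D9 while PSMB7 was called lower. PSME1 and PSME2 together were 40.8 ± 1.4% of the per-length sum with PSME3 in untreated parental cells, 58.1 ± 0.52% with IFN and 75.9 ± 0.30% in KRAB-D9 with both agents, the highest of the 9 groups. In that group PSME3 was at 182 and 178 CPM against 247 and 258 CPM with IFN alone. Both PSME3 and PSME2 were called lower there than with IFN alone, and PSME1 was not called.

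**Figure D3:**
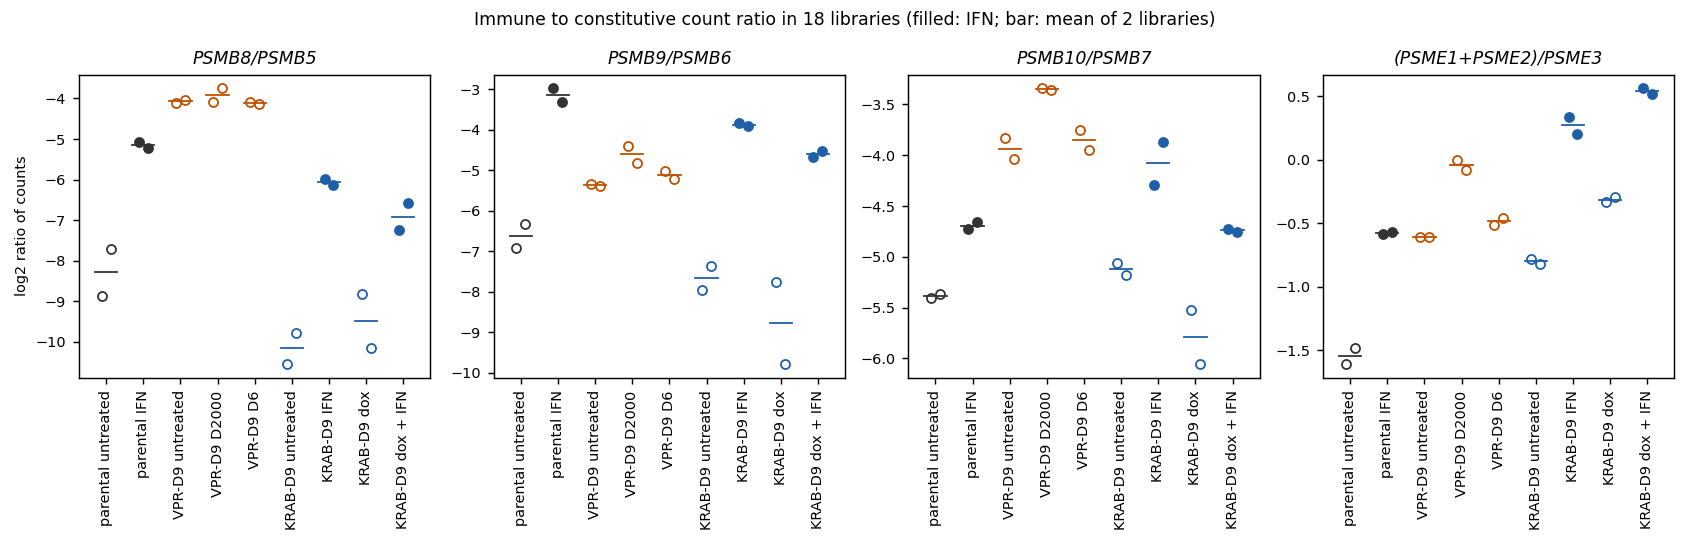
Log2 ratio of counts within a library for PSMB8/PSMB5, PSMB9/PSMB6, PSMB10/PSMB7 and PSME1 plus PSME2 over PSME3; points are the 18 libraries (filled with IFN), bars the mean of 2. In the parental and KRAB-D9 lines, libraries with IFN lie above their untreated or doxycycline-only counterparts in all 4 panels.

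On the log2 scale, IFN in parental cells moved the ratio PSMB9/PSMB6 by 3.47 and PSMB8/PSMB5 by 3.15, against 0.69 for PSMB10/PSMB7 and 0.97 for the caps. In KRAB-D9 without doxycycline the IFN values were 3.78 for PSMB9/PSMB6 and 4.11 for PSMB8/PSMB5, with 6 and 8 PSMB8 counts in the untreated libraries. The SDs of these differences were 0.42 and 0.55, each larger than the gap between the pairs. With doxycycline present the values were 4.16 and 2.56, with SDs of 1.44 and 1.05. The doxycycline-only libraries held 19 and 5 PSMB9 counts and 17 and 7 PSMB8 counts. The order of the pairs was not tested. In parental cells the gap between the pairs was smaller than the SD of either difference (0.48 and 0.82). Untreated VPR-D9 differed from parental cells by 4.21 in PSMB8/PSMB5 and by 1.26 in PSMB9/PSMB6.

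The other 45 proteasome genes tested, from the core, the 19S cap, assembly chaperones and further regulators, were examined beside the 10. With IFN in parental cells 0 of 45 were called by edgeR or DESeq2, where edgeR called 3.03% of all genes tested higher and 1.31% lower. Of the 45, 4 had an unadjusted edgeR p under 0.05. In KRAB-D9, IFN raised 3 (PSMA3 and PSMB2, core subunits, and DDI2, a protease that activates NFE2L1) by 0.14 to 0.26 on the log2 scale and lowered 1 (PSMD4, a ubiquitin receptor of the 19S cap). Of all genes tested, 3.98% were called higher and 2.42% lower there, so calls in so few of the 45 are near the general share. On dropping an untreated library (replicate 1 or 2) 2 of the 45 were called, and on dropping IFN replicate 2 the count was 7. With doxycycline present, IFN raised 2, PSMA3 and PSMA5, and lowered none, where 3.12% of all genes tested were called higher and 1.77% lower. DESeq2 also lowered none and raised 3, and 8 had an unadjusted edgeR p under 0.05 in either direction. On dropping doxycycline replicate 1 the count was 1, and on dropping doxycycline replicate 2, or replicate 1 of the group given both agents, it was 0.

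Doxycycline in KRAB-D9 lowered 21 of these 45 and raised 2, where 12.7% of all genes tested were called lower and 12% higher. With IFN present it lowered 25 and raised 1, PSMD10 (0.41 ± 0.05), a chaperone of 19S assembly, where the shares were 11.9% and 10.4%. With only the compared groups in the fit, 14 rather than 26 were called with IFN present. D2000 lowered 40 of the 45, where 24.2% of all genes tested were called lower and 21.9% higher. The median of the 45 in D2000 was -0.52 against 0.06 for all genes tested. PSMG1, a chaperone of core assembly, fell by 1.24 ± 0.04, PSMA5 fell by 0.87 ± 0.04 and the proteasome adaptor ECPAS fell by 0.73 ± 0.04. The only gene raised was NFE2L1 (0.12 ± 0.04), the transcription factor that drives proteasome genes when proteasomes are impaired. D6 lowered 6 and raised none, where 6.6% of all genes tested were called in either direction. DESeq2 also raised none, and 20 had an unadjusted edgeR p under 0.05 in either direction. Fewer of the 45 were called when any 1 of the 4 libraries was left out. Untreated VPR-D9 had 34 of the 45 below parental cells and 2 above, where 18.2% of all genes tested were lower and 18.5% higher. The median was -0.29, close to the -0.30 of the 5 constitutive-type genes. Untreated KRAB-D9 had 19 of the 45 below parental cells and 2 above, with a median of -0.11, where 14.3% of all genes tested were lower and 14.2% higher.

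**Figure D4:**
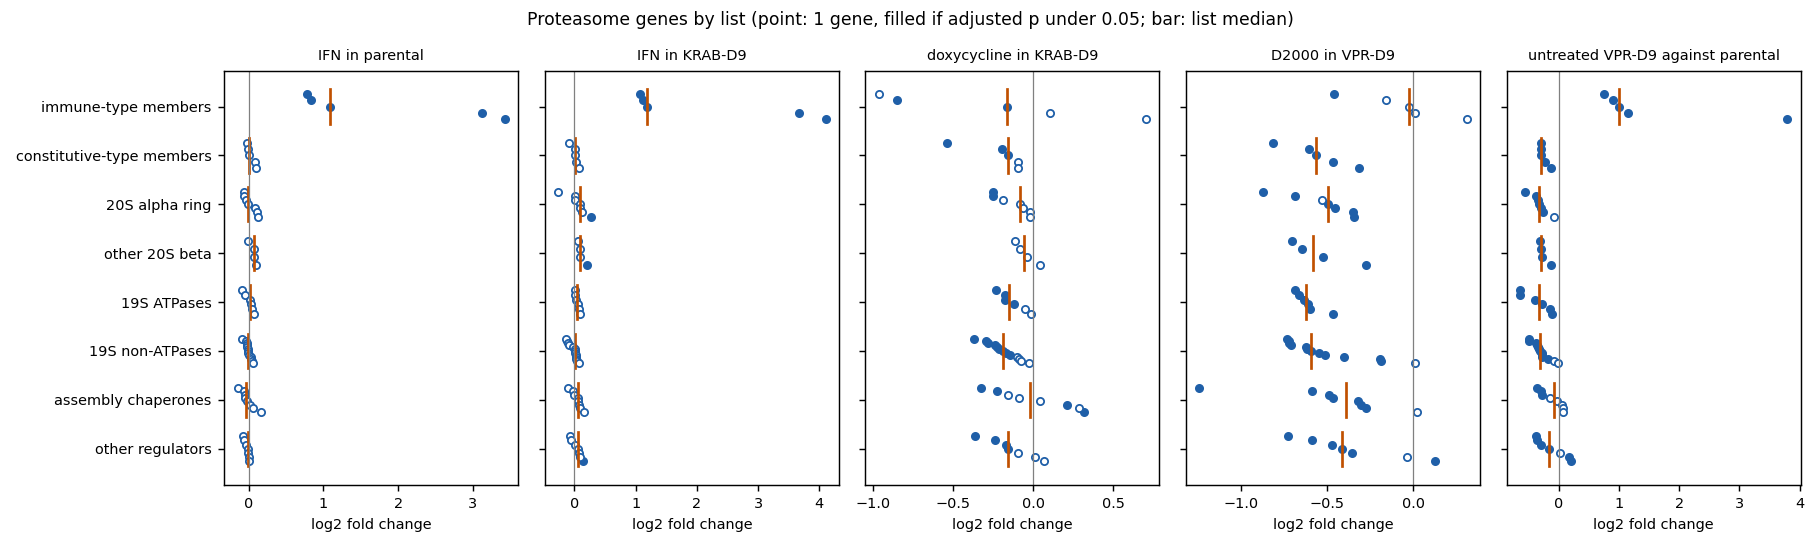
Log2 fold change of proteasome genes by list in 5 comparisons; points are genes (filled: adjusted p under 0.05 by edgeR), bars list medians, and each panel has its own axis. The immune-type genes stand away from the other lists with IFN, and in D2000 the lists other than the immune-type one have medians between -0.62 and -0.39.

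Partners in the class I pathway moved with the immune-type genes after IFN. Of 9 partners, 7 were called higher in parental cells and 8 in KRAB-D9 with and without doxycycline, with TAP1 at 3.33 ± 0.13, 5.04 ± 0.16 and 5.29 ± 0.17 in parental cells, KRAB-D9 with doxycycline and KRAB-D9 without it. Of 4 regulators, 3 were called higher in each. The share of all genes tested called higher was 3.03% in parental cells, 3.12% in KRAB-D9 with doxycycline and 3.98% in KRAB-D9 without it. IRF1, a transcription factor of PSMB9 and TAP1, rose by 0.59 ± 0.13 in parental cells and by 1.07 ± 0.13 in KRAB-D9 without doxycycline. In D2000, 3 of the 4 regulators were called higher, and of the 9 partners 4 were called higher and 1 lower. Of all genes tested, 21.9% were called higher there and 24.2% lower. IRF9, a subunit of the interferon-activated transcription complex, rose by 1.98 ± 0.19 in D2000, while PSMB8, PSMB9 and PSMB10 were not called.

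Several of these genes overlap others on the chromosome, and the strand setting of the counting was not given in the sources used here. In the deposited annotation PSMB9 overlaps TAP1, PSMB8 and PSMB8-AS1, PSMB10 overlaps CTC-479C5.12, PSME1 overlaps EMC9, PSME2 overlaps RNF31, and PSME3 overlaps BECN1. TAP1 had a mean of 764 counts a library against 166 for PSMB9, so a part of its reads assigned to PSMB9, or the reverse, would weigh on PSMB9. In untreated KRAB-D9 both were lower than in parental cells (-2.45 for TAP1 and -1.15 for PSMB9). How overlapping reads were assigned was not tested.

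Over the 18 libraries, the genes most like each immune-type gene were found by Pearson r of log2(CPM + 0.5) among 13551 genes, as a description over libraries that share treatments and lines. The profile of PSMB8 was most like those of APOL1 (0.960), RNF213 (0.952) and TRANK1 (0.944), and that of PSMB9 most like IFIT3 (0.960), HLA-C (0.955) and LGALS3BP (0.946). PSMB10 was most like P3H3 (0.927), PSME1 like UBE2L6 (0.974) and PSME2 like C6orf62 (0.951). None of the 10 genes was among the 3 nearest of these 5. Among the members themselves, PSME1 and PSME2 had an r of 0.893, PSMB8 and PSMB10 of 0.848, and the chromosome 6 neighbours PSMB8 and PSMB9 of 0.657. PSMB7 and POMP had 0.954 and PSMB6 and PSMB7 0.949, whereas PSME3 and POMP had 0.198.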

How the data were processed

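RNA of 18 K562 libraries (9 groups of 2) was examined. The authors deposited read counts per gene without normalization; the submitters' processing notes list featureCounts 2.0.2, FastQC 0.11.9, STAR 2.7.8a, cutadapt 2.10 and GRCh38.p13, and the labels' protocols a stranded polyA mRNA kit. Annotation release, strand setting and the treatment of multiply mapped reads were not given in the sources used here.

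Low-count genes were filtered with filterByExpr by group (22143 of 41285 kept), scaled by TMM and fitted with 1 robust edgeR 4.0.16 quasi-likelihood model of 9 group means in R 4.3.3 (limma 3.58.1; 9 residual degrees of freedom, common biological coefficient of variation 0.0569). There were 12 comparisons. Genes were called at an adjusted p (Benjamini-Hochberg, across the 22143) under 0.05. The SE is the size of the log2 fold change over the square root of F. The fit was tested on simulated counts. Libraries held 32.7M to 63M counts.

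The 10 members and all lists were chosen with earlier results of these data known. All 10 were tested in every comparison, but not every member is named in each. Other genes come from fixed pathway lists, named where called, at most the 4 with the smallest adjusted p of a list, plus IRF1, NLRC5 and TAP1. A gene of the regulator list and one of the K562 marker list are not reported here, and counts and sums leave them out. Alternatives were DESeq2 1.42.0, its size factors, library totals, no filter, only the compared groups, a replicate block, leaving out each library and, for ratios, 1 added count. Motifs were searched in RefSeq promoter windows (GRCh38.p14).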

Additional observations from a re-analysis of the deposited data

How the results depend on the processing

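Of 1277 values of the 10 genes recomputed under the alternatives, 1182 kept their direction and their side of the threshold, 33 lost a call, 10 gained one and 52 changed sign. The sign changes were all in values that edgeR with TMM did not call, and the cause was not tested. Fold changes on the log2 scale that changed sign follow. With DESeq2 size factors and with DESeq2, PSMB7 had 0.0080 for IFN in KRAB-D9 with doxycycline, and DESeq2 called 1 of the 10 genes, not 0, for the IFN effect of KRAB-D9 minus parental. With library totals, POMP had -0.0051 for IFN in KRAB-D9 and -0.014 for the IFN effect of KRAB-D9 minus parental, and PSMB7 had 0.0063 for IFN in KRAB-D9 with doxycycline and 0.00014 for the IFN effect with minus without doxycycline. With the same setting PSMB5 had 0.027 for doxycycline with IFN, PSMB8 0.076 and PSMB10 0.21 in D2000, and PSMB8 -0.13, PSMB10 -0.15 and PSME1 -0.13 for D6 against D2000. Without the filter on low counts POMP had -0.0035 for KRAB-D9 minus parental. With only the compared groups, POMP had -0.0012 for IFN in KRAB-D9 and PSME1 -0.0035 in D2000.

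Leaving out each library in turn, with a lone remaining library assumed to vary like the other groups, gave these ranges. For IFN in parental cells, POMP had -0.046 to 0.055 and PSMB6 -0.074 to 0.046. For IFN in KRAB-D9, PSMB5 had -0.019 to 0.066, PSMB7 -0.025 to 0.058 and POMP -0.059 to 0.070, and with doxycycline present PSMB7 had -0.020 to 0.017. For the IFN effect of KRAB-D9 minus parental, 0 to 1 members were called, with PSMB9 at -0.15 to 0.56 and POMP at -0.062 to 0.067. For the IFN effect with minus without doxycycline, 0 to 1 were called, with PSMB9 at -0.53 to 1.40, PSMB10 at -0.27 to 0.22 and PSMB7 at -0.059 to 0.023. For doxycycline in KRAB-D9, 3 to 5 were called and PSMB8 had -0.076 to 1.22, and with IFN PSMB5 had -0.072 to 0.018. In D2000, PSMB10 had -0.13 to 0.087, PSME1 -0.070 to 0.088 and the ratio PSMB8/PSMB5 -0.013 to 0.32, and in D6 PSMB10 had -0.092 to 0.13. For D6 against D2000, PSMB8 had -0.067 to 0.19, PSMB9 -0.39 to 0.075, PSMB10 -0.030 to 0.10 and PSME1 -0.012 to 0.14. In untreated KRAB-D9 against parental, 1 to 5 were called.

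The replicate block changed the direction or the call of none of the 120 member values. Same-numbered libraries did not deviate together (36 pairs of groups, r from -0.0749 to 0.105, median -0.00713, 1 above 0.1). These correlations cannot show whether same-numbered libraries shared a culture or a batch, which the labels do not give. Counts over all genes moved by more than 1.5 times in some settings. With only the compared groups, calls went from 1417 to 465 for IFN in KRAB-D9, from 4929 to 3270 for doxycycline with IFN and from 1461 to 2327 for D6. For the IFN effect with minus without doxycycline, 35 calls became 74 without the filter, 85 with DESeq2 and 14 with only the compared groups, and for that of KRAB-D9 minus parental 67 became 133, 126 and 22. Leaving out KRAB-D9 IFN replicate 2 gave 769 and 992 calls in these 2 comparisons, and leaving out any other library gave 17 to 43 and 20 to 105. Of the other 45 proteasome genes, 4 called for IFN in KRAB-D9 became 2 without the filter and 1 with only the compared groups, and 6 in D6 became 12 with the latter. With 2 libraries a group and few counts of PSMB8 and PSMB9, small differences in these genes were not detectable at this depth.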

Other observations

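The tissue-restricted catalytic subunit PSMB11, the thymic counterpart of PSMB5 and PSMB8, was counted in only 2 of the 18 libraries. D2000 replicate 2 had 11 counts (0.166 CPM) and D6 replicate 1 had 3 (0.0579 CPM), while the other library of each of these groups had 0. It did not pass the filter on low counts and was not tested. NLRC5, the class I transactivator, had at most 70 counts in any library, with 70 and 58 counts (1.26 and 1.08 CPM) in KRAB-D9 with doxycycline and IFN and 2 and 0 counts in untreated parental cells.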
